A study of Homo sapiens with 6 samples.

Results

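The genes described here are the zinc finger genes of the 19p12 cluster on human chromosome 19. A member was defined as a gene whose symbol is ZNF and a number, that starts between 19 and 24.6 Mb of chromosome 19 in GRCh38, and that is measured by a probeset annotated to its symbol alone. This gave 38 probesets for 34 genes, of 19158 one-symbol probesets for 18404 genes in all. The cluster was selected on its lower values in the TRIM71 line, so the differences of its members between the lines are given as a description and were not tested as a finding. Of the 34 genes, 33 are protein coding and ZNF826P is a transcribed pseudogene. The RefSeq table holds 44 such genes in the interval, and the other 10, of which 4 are protein coding (ZNF66, ZNF98, ZNF723 and ZNF728), had no probeset of their own here.

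Total RNA of 2 groups of 3 arrays was compared. The TRIM71 group is a HEK293 Flp-In line that carries a constitutively expressed TRIM71 transgene with a FLAG-HA tag, kept in medium with hygromycin B. The parental group is the HEK293 Flp-In line without the transgene, for which the growth protocol names no hygromycin B. HEK293 is an established human line of embryonic kidney origin, and TRIM71 is an RNA-binding protein of stem and progenitor cells. Whether the TRIM71 line is 1 clone is not stated, and the transgene, the drug and any other difference between the lines cannot be told apart.

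Krüppel-associated box (KRAB) zinc finger proteins, to which most members belong, are the largest family of human transcription factors. Each carries a row of C2H2 zinc fingers that reads DNA, often within transposable elements, and a KRAB domain that recruits the corepressor TRIM28. TRIM28 in turn brings the histone methyltransferase SETDB1 and heterochromatin protein 1. The genes arose largely by tandem duplication and stand in clusters on chromosome 19, and their own bodies are known to carry heterochromatin marks. The 19p12 cluster expanded in primates. It includes ZNF91, which represses SVA retrotransposons, and ZNF93, which represses LINE-1 elements.

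Each array column held log2 expression values made with RMA. The array medians lay between 6.90 and 6.97. Arrays of the same line correlated with Pearson's r of 0.996 to 0.997, and arrays of different lines with 0.991 to 0.994. TRIM71 itself stood at 10.63, 10.86 and 10.72 in the TRIM71 arrays, against 7.23, 7.54 and 7.44 in the parental arrays (adjusted p = 6.8e-05 by limma). Its two-sided exact permutation p of 0.1 is the smallest that 3 arrays against 3 allow. HEK293 markers were analysed for 10 genes, and VIM averaged 11.51 in the TRIM71 line and 11.11 in the parental line. Of these 10, 3 fell and 3 rose, where 12.2% of all genes fell and 10.0% rose, with the neurofilament gene NEFL at 10.96 in the TRIM71 line and 12.41 in the parental line (adjusted p = 9.5e-05 by limma). Markers of other cell types were analysed for 9 genes, with means of 3.50 to 7.41 in the TRIM71 line and 3.53 to 7.07 in the parental line, and 0 of the 9 passed the test. In bulk RNA, fewer cells that express a gene and less RNA per cell cannot be told apart.

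The promoters of the members are shown first, to describe how far these neighbouring genes are alike. The RefSeq promoter table (GRCh38.p14) held 27 of the 34 genes, each with 250 bases before and 50 after the start of transcription. The 4 printed here, cut 30 bases after the start, are those of the 2 members with the largest changes among the 27 (ZNF737 and ZNF429) and, among adjacent members that have 1 probeset each and are both in the promoter table, of the pair that differed most in change (ZNF726 and ZNF254). They lie at chr19:20565752-20566031 (minus strand), chr19:21505352-21505631 (plus strand), chr19:23914636-23914915 (plus strand) and chr19:24086937-24087216 (plus strand). All are written 5′ to 3′ on the strand of the gene. The start used for ZNF254 lies downstream of the outermost start of that gene in the same annotation. Capitals mark TCCAATCA and CTGTCACT, the most widely shared runs of 8 bases in the members' promoters that do not overlap each other.
ZNF737: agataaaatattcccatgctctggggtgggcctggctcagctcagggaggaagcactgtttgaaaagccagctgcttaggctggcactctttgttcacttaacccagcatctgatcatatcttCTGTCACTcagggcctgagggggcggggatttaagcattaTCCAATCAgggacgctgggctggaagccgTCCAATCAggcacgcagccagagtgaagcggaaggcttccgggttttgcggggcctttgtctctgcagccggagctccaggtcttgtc
ZNF429: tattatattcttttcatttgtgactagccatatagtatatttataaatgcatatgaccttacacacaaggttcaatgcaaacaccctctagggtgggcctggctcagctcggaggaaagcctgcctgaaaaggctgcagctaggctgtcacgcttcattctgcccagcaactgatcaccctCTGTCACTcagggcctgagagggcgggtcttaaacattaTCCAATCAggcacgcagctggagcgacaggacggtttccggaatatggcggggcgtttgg
ZNF726: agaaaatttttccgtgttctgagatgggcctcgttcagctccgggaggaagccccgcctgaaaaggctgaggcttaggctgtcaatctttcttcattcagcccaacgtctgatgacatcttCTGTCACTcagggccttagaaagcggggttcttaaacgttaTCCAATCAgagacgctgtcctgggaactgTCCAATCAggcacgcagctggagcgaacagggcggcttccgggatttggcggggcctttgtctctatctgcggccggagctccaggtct
ZNF254: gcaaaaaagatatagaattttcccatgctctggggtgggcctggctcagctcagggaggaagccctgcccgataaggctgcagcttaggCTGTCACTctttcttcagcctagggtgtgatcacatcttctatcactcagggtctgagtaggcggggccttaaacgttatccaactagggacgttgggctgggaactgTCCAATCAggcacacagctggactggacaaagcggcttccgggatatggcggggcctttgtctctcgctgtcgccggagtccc

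Searched on both strands, TCCAATCA was present in 27 of 27 member promoters and in 440 of all 27305 promoters of the table (1.61%). It contains CCAAT, the motif named for the CCAAT box, which 9747 of all promoters hold (35.7%). Counted from the start of transcription, the first copy lay at positions from −88 to −30, with a median of −82. CTGTCACT was present in 24 of 27 member promoters and in 524 of all promoters (1.92%). Since both runs were looked for in these promoters, their counts among the members are a description. A run present in 27 of 27 promoters cannot separate members that were lower in the TRIM71 line from the rest. One present in 24 of 27 hardly can, so nothing is read from the following counts. TCCAATCA was in 18 of 18 promoters of members called lower (below) and in 9 of 9 of the others, and CTGTCACT was in 17 of 18 and in 7 of 9.

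The same letters were less common in most other zinc finger promoters. TCCAATCA was in 19 of 39 promoters of ZNF genes on 19p outside the interval, in 0 of 60 on 19q before 52 Mb, in 0 of 75 on 19q from 52 Mb and in 13 of 193 on other chromosomes. Of the promoters of other genes within the interval, 1 of 19 held it. The GC box letters GGGCGG were in 20 of 27 member promoters against 44.6% of all promoters, and TATAAA was in 3 of 27 against 3264 of all 27305. GGGCGG is not particular to the members. It was in 34 of 39 promoters of ZNF genes on 19p outside the interval and in 57 of 75 on 19q from 52 Mb. On 19q before 52 Mb 26 of 60 held it, and on other chromosomes 115 of 193. Of other genes within the interval, 14 of 19 held it. GGCGGGAA was found in 1 member promoter (3.18% of all promoters). CACGTG, TGACGTCA and CGCATGCG were in 0 of 27, against 7.43%, 1.98% and 2.19% of all promoters. The ZNF726 and ZNF254 promoters were identical at 77.5% of aligned positions, gaps included, and the median over all 351 pairs of member promoters was 75.6% (range 44% to 91%). Pairs with ZNF14, ZNF101, ZNF429 and ZNF708 had lower medians (47.7%, 51.1%, 54.6% and 56.1%). No identity with promoters outside the cluster is given here for comparison. The lower value for ZNF429 against ZNF726 (52.6%) went with a start annotated at another place in the shared stretch, as the position of the capitals shows. Member promoters held 8 to 18 CpG dinucleotides (median 10), against a median of 14 over all promoters.

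Most members were lower in the TRIM71 line. Of 34 genes, 30 had a change below 0 and 4 above 0, and the median log2 fold change of the TRIM71 line over the parental line was −0.74. It was −0.01 over all genes. In the limma fit across all probesets, 21 members were called lower (61.8%), 1 higher and 12 in neither direction. Over all 18404 genes, 12.2% were called lower and 10.0% higher. By at least 1.5-fold, 19 members were lower, against 2.71% of all genes. By at least 2-fold, 12 were lower, against 0.837%. Every TRIM71 array lay below every parental array for 24 members (70.6%), against 23.4% of all genes. Nothing is read from these shares, because the cluster was chosen for them.

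**Figure D1:**
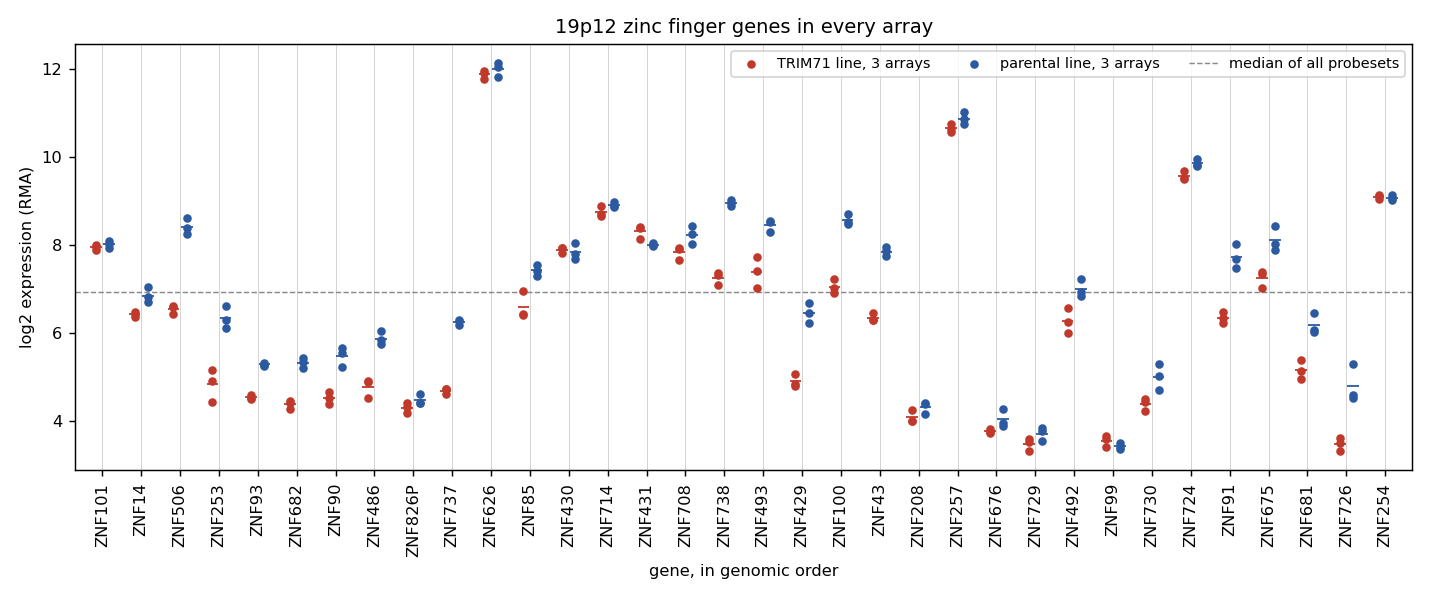
Log2 expression (RMA, vertical axis) of the 34 zinc finger genes in genomic order (horizontal axis), with the 3 TRIM71 arrays left of the 3 parental arrays for each gene, short lines at the group means and a dashed line at the median of all probesets (6.94). The points of the 2 lines stand apart for 24 members with the TRIM71 arrays below, as for ZNF506, ZNF738 and ZNF737, and overlap or lie close together for ZNF101, ZNF430 and ZNF254.

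The largest difference was that of ZNF506, near the 19p side of the cluster. It had log2 values of 6.61, 6.62 and 6.44 in the TRIM71 arrays, against 8.61, 8.39 and 8.26 in the parental arrays, a log2 fold change of −1.87 (SE 0.10, 3.65-fold lower). ZNF253, its neighbour, had 4.91, 5.17 and 4.43 in the TRIM71 arrays, against 6.62, 6.30 and 6.13 in the parental arrays (−1.51, SE 0.21). Both genes were separated between the lines by more than the spread of either group, although the 3 TRIM71 arrays of ZNF253 lay far apart. ZNF486 had 4.88, 4.52 and 4.91 in the TRIM71 arrays, against 6.05, 5.84 and 5.76 in the parental arrays (−1.11, SE 0.13). Between ZNF253 and ZNF486 stand ZNF93 (−0.75), ZNF682 (−0.95) and ZNF90 (−0.96). ZNF93, the LINE-1 repressor, averaged 4.54 ± 0.06 in the TRIM71 line and 5.29 ± 0.03 in the parental line (SD, n = 3 each).

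A run of 7 neighbours, ZNF14 to ZNF486, was called lower, with changes between −1.87 and −0.42. The pseudogene ZNF826P follows (−0.18), with 4.31 ± 0.12 in the TRIM71 line and 4.49 ± 0.11 in the parental line (SD, n = 3 each). ZNF737 had 4.73, 4.61 and 4.74 in the TRIM71 arrays, against 6.29, 6.27 and 6.19 in the parental arrays (−1.56, SE 0.06). Its arrays hardly differed within a group. ZNF85 was lower as well (−0.82), with a TRIM71 replicate 3 at 6.96 above the other TRIM71 arrays at 6.42 and 6.44.

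Several members in the middle of the cluster were not called lower. ZNF430 (0.05), ZNF714 (−0.15) and ZNF708 (−0.39) were not called. ZNF431 was the only member called higher, with 8.41, 8.40 and 8.15 in the TRIM71 arrays, against 7.998, 7.97 and 8.04 in the parental arrays (0.32, SE 0.08). All 3 of its TRIM71 arrays lay above the parental ones, but the call ended with the arrays centred on their medians, with the replicate block and without TRIM71 replicate 1 or 2 or any one of the 3 parental replicates. The promoters of ZNF430, ZNF714 and ZNF431 hold TCCAATCA, as every member promoter examined does, since the run was picked for being widely shared.

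The next 5 members in genomic order, ZNF738 to ZNF43, were all called lower, with changes between −1.70 and −1.06. ZNF738 had 7.10, 7.37 and 7.32 in the TRIM71 arrays, against 9.03, 8.95 and 8.90 in the parental arrays (−1.70, SE 0.08, 3.24-fold lower). ZNF493 had 7.73, 7.42 and 7.02 in the TRIM71 arrays, against 8.55, 8.30 and 8.52 in the parental arrays (−1.06, SE 0.18). The TRIM71 arrays of ZNF493 were the more scattered group, yet the highest of them stayed below the lowest parental array. ZNF429, whose promoter is printed above, had 5.07, 4.85 and 4.81 in the TRIM71 arrays, against 6.68, 6.45 and 6.22 in the parental arrays (−1.54, SE 0.13).

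ZNF100 had 7.02, 7.23 and 6.91 in the TRIM71 arrays, against 8.71, 8.48 and 8.54 in the parental arrays (−1.52, SE 0.10). ZNF43 had 6.31, 6.46 and 6.29 in the TRIM71 arrays, against 7.96, 7.86 and 7.75 in the parental arrays (−1.50, SE 0.08). ZNF100 was 2.87-fold and ZNF43 2.83-fold lower, and the groups of both stood apart. CCNYL6, a transcribed pseudogene between them that is no zinc finger gene, averaged 4.73 ± 0.06 in the TRIM71 line and 4.76 ± 0.11 in the parental line (SD, n = 3 each; −0.03, adjusted p = 0.84 by limma).

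ZNF208, ZNF257, ZNF676 and ZNF729, which come next, were not called, with changes between −0.27 and −0.22. ZNF208, ZNF676 and ZNF729 had parental means of 4.32, 4.04 and 3.72. With ZNF826P and ZNF99 (0.12), 5 members had a parental mean under 4.5, and 0 of these 5 was called lower. Across all 34 members the change had no linear or rank trend with the parental level (Pearson's r of 0.01, Spearman's rho of 0.003). Both coefficients share the parental arrays with the change itself. A relation that is not monotone is not seen by them. The brightest members in the parental line, ZNF626, ZNF257, ZNF724 and ZNF254, changed by −0.11, −0.22, −0.28 and 0.03. ZNF738, the next brightest, changed by −1.70. ZNF626 and ZNF257 are given here by the brighter of their probesets, and the dimmer ones are described below. Over the 27 members with a promoter, the change had r = 0.44 and rho = 0.46 with the GC percentage of the promoter, and r = 0.30 and rho = 0.32 with its number of CpG dinucleotides. These are descriptions across genes, which share arrays and a common origin and are not independent replicates.

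Toward the 19q side, ZNF492 (−0.73) and then ZNF730 to ZNF726, a run of 6, were called lower. ZNF91, the SVA repressor, had 6.36, 6.47 and 6.24 in the TRIM71 arrays, against 8.03, 7.47 and 7.70 in the parental arrays (−1.38, SE 0.14, 2.60-fold lower). No TRIM71 array of ZNF91 came near a parental one, although its parental arrays were scattered. ZNF681 had 5.39, 5.15 and 4.96 in the TRIM71 arrays, against 6.45, 6.07 and 6.02 in the parental arrays (−1.01, SE 0.15). ZNF726 had 3.63, 3.50 and 3.33 in the TRIM71 arrays, against 5.30, 4.59 and 4.53 in the parental arrays (−1.32, SE 0.21). ZNF675, a protein reported to bind the signalling adaptor TRAF6, changed by −0.87, ZNF730 by −0.63 and ZNF724 by −0.28.

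ZNF254, the last member and the neighbour of ZNF726, showed no such difference. It had 9.14, 9.12 and 9.05 in the TRIM71 arrays, against 9.13, 9.07 and 9.02 in the parental arrays (0.03, SE 0.05). The 2 adjacent genes thus differed by 1.35 in log2 fold change, with the promoters shown above. Those promoters also differ in the marked runs. ZNF726 has 2 copies of TCCAATCA and ZNF254 has 1, and CTGTCACT lies at −129 in ZNF726 and at −161 in ZNF254. Whether this bears on the changes was not tested. At the 19p side, the outermost member ZNF101 had 7.96, 7.999 and 7.90 in the TRIM71 arrays, against 8.09, 8.03 and 7.94 in the parental arrays (−0.06). The nearest ZNF genes outside the interval were ZNF333 on the 19p side, with 6.33, 6.26 and 6.46 in the TRIM71 arrays, against 6.39, 6.50 and 6.30 in the parental arrays (−0.05). On the 19q side it was ZNF536, with 8.40, 8.39 and 8.15 in the TRIM71 arrays, against 8.30, 8.30 and 8.36 in the parental arrays (−0.01). All 4 of these genes at the ends had groups that overlapped.

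**Figure D2:**
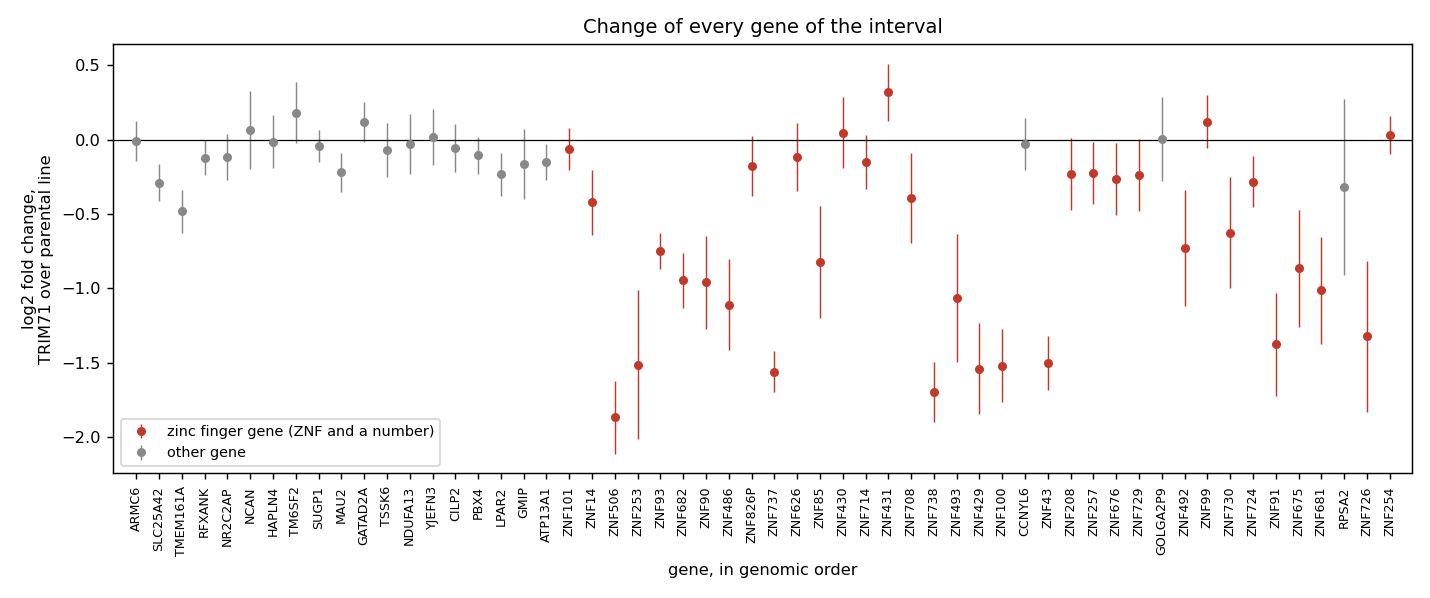
Log2 fold change of the TRIM71 line over the parental line (vertical axis, bars: 95% interval of the limma fit) for all 56 genes of the interval in genomic order (horizontal axis), zinc finger genes in red and other genes in grey. The zinc finger genes reach down to −1.87 and alternate with members near 0, while the other genes lie between −0.48 and 0.18.

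Where a gene had 2 probesets, they did not always move alike. For ZNF626, the brighter probeset averaged 11.88 in the TRIM71 line and 11.997 in the parental line (−0.11) and was not called. The other averaged 5.41 and 5.91 (−0.50), was lower in every TRIM71 array and was called lower. Which of them measures ZNF626 was not settled, so its place among the members not called depends on the probeset used. ZNF493 was lower at both (−1.06 and −0.61). ZNF257 changed by −0.22 at a bright probeset (10.66 in the TRIM71 line and 10.88 in the parental line) and by −0.52 at a dim one (3.67 and 4.19), and ZNF208 by −0.23 and −0.09, both dim. Another 2 probesets are annotated to several ZNF genes of the interval at once and were left out. The one for 8 genes changed by −0.18 and was not called. The one for ZNF98, ZNF492 and ZNF85 changed by −0.25 and was called lower. The first includes ZNF728, which like ZNF98 is no member, and the other genes of both are members. These genes are close paralogs, so a probeset may read more than the gene it is named for, and single members are uncertain to that extent.

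The members also moved together among replicates. Parental replicate 1 was the highest parental array for 30 of 34 members and stood 0.13 above the parental mean at the median member. Parental replicate 3 was the lowest for 23 members, at −0.07. Among the TRIM71 arrays, replicate 3 was the lowest for 20 members, at −0.07. Over all genes the same medians lay between −0.02 and 0.01. The matching counts over all genes are not given here. The members are close paralogs, so the counts over 34 members are not counts of independent observations. Relative to the parental mean, the median member stood at −0.74, −0.60 and −0.76 in the TRIM71 arrays, against 0.13, −0.03 and −0.07 in the parental arrays. Without parental replicate 1, as for every other array left out in turn, 17 to 18 members were called lower and the median change was between −0.78 and −0.69. The part of this shared spread in the values of single members was not tested.

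**Figure D3:**
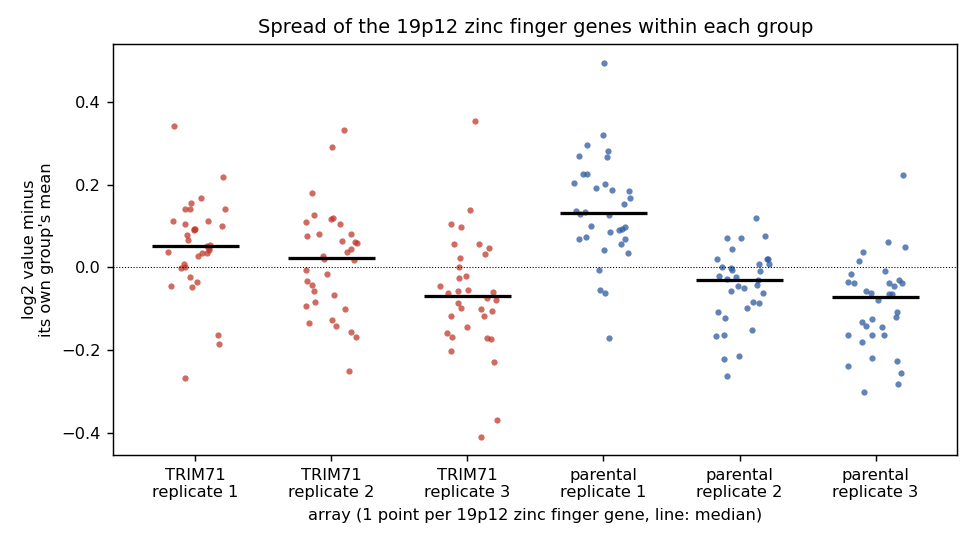
Difference of each member's log2 value from the mean of its own group (vertical axis) in each of the 6 arrays (horizontal axis), 1 point per gene and a black line at the median of the 34 genes. Most points of parental replicate 1 lie above 0 (median 0.13), and those of parental replicate 3 and TRIM71 replicate 3 lie mostly below it (median −0.07 each).

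The other genes of the same interval were not chosen by their values and were tested. There were 22 of them, and 4 (18.2%) fell while 0 rose, against 12.2% and 10.0% of all genes. Their median change was −0.06. By at least 1.5-fold, 0 of the 22 were lower. TMEM161A, a membrane protein gene, had 8.94, 9.06 and 9.11 in the TRIM71 arrays, against 9.52, 9.55 and 9.49 in the parental arrays (−0.48, SE 0.06, adjusted p = 0.0038). SLC25A42, a mitochondrial coenzyme A transporter, fell by 0.29 on the log2 scale (adjusted p = 0.014), the cohesin loader MAU2 by 0.22 (adjusted p = 0.039) and the lysophosphatidic acid receptor LPAR2 by 0.23 (adjusted p = 0.042). Leaving out 1 array brought the number that fell to between 1 and 3, with 1 left without parental replicate 3 and 2 without any one TRIM71 replicate. The call of MAU2 ended without any one TRIM71 replicate or parental replicate 2 or 3 (adjusted p = 0.091 to 0.12), and that of LPAR2 without any one TRIM71 replicate or parental replicate 1 or 3 (0.072 to 0.13). That of SLC25A42 ended without parental replicate 3 (adjusted p = 0.0504). LPAR2 also lost its call with the intensity trend in the fit, plain or robust, and with centred arrays, and its result was the same in 5 of 14 alternatives. ATP13A1, which borders ZNF101, differed by −0.15 (adjusted p = 0.097), and LOC100420587, a pseudogene beyond ZNF254, by 0.02 (adjusted p = 0.89). Most of these genes lie on the 19p side of the zinc finger genes, and only CCNYL6, GOLGA2P9 and RPSA2 stand among them. None of those 3 was called. Their parental means (4.76, 6.27 and 5.40) lay below the median of all probesets (6.94), and CCNYL6 and GOLGA2P9 are transcribed pseudogenes. CCNYL6 changed by −0.03 and GOLGA2P9 by 0.005. RPSA2 changed by −0.32, and its interval in the limma fit, −0.91 to 0.27, includes a large fall. These 3 genes are too few and too dim to show that other genes within the zinc finger stretch were unchanged.

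Zinc finger genes elsewhere are set beside the members without a test, since those of chromosome 19 were also looked at with results known. On 19p outside the interval, 6 of 42 ZNF genes were called lower and 4 higher, with a median of −0.01. On 19q before 52 Mb, 15 of 69 were called lower and 4 higher (median −0.08), and on 19q from 52 Mb 34 of 89 were called lower and 4 higher (median −0.15). On other chromosomes, 38 of 249 were called lower and 30 higher (median −0.01). Over all genes the shares were 12.2% lower and 10.0% higher. By at least 1.5-fold, 55.9% of the 19p12 members were lower, against 2.38%, 13.0%, 27.0% and 6.43% of these 4 groups in the same order and 2.71% of all genes.

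**Figure D4:**
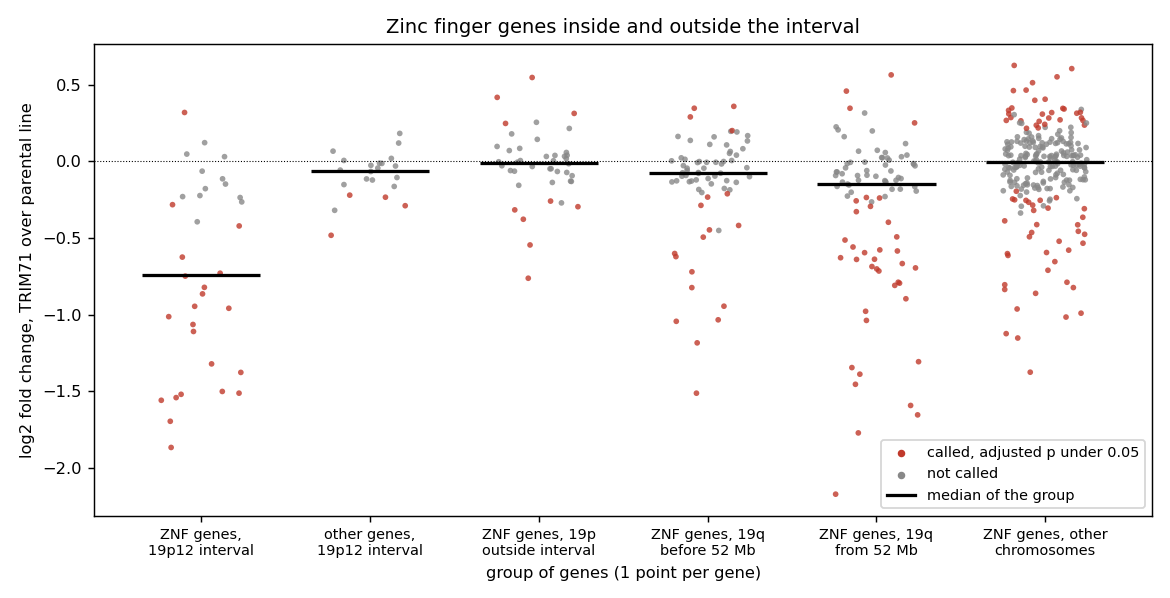
Log2 fold change of the TRIM71 line over the parental line (vertical axis) for each gene, by group of genes (horizontal axis), with called genes in red, others in grey and the median of each group as a black line. The median is −0.74 for the 19p12 zinc finger genes and between −0.15 and −0.01 for the other 5 groups.

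The list of genes for proteins that KRAB zinc fingers work with was analysed for 33 genes. Of these, 6 fell, 3 rose and 24 did not pass (18.2% and 9.09%, against 12.2% and 10.0% of all genes), with a median of −0.01. TRIM28, the KRAB corepressor, had 11.46, 11.45 and 11.47 in the TRIM71 arrays, against 11.46, 11.50 and 11.48 in the parental arrays (−0.02, 95% interval −0.12 to 0.09, adjusted p = 0.85). SETDB1, the methyltransferase that TRIM28 recruits, differed by −0.15 (95% interval −0.27 to −0.02, adjusted p = 0.11) and was not called. The arrays of the 2 lines overlapped for TRIM28. For SETDB1, every TRIM71 array (8.92 to 9.03) lay below every parental array (9.10 to 9.16), as for 23.4% of all genes.

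The gene with the smallest adjusted p in this list was ZNF274, a KRAB zinc finger protein known to bind the 3′ ends of zinc finger genes and to bring SETDB1 there. It lies outside the 19p12 interval. ZNF274 is also counted above among the ZNF genes on 19q from 52 Mb, of which 34 of 89 were called lower. ZNF274 had 8.27, 8.38 and 8.32 in the TRIM71 arrays, against 8.84, 8.78 and 8.83 in the parental arrays (−0.49, SE 0.05, adjusted p = 0.0019). All TRIM71 arrays were below all parental arrays. The H3K9 methyltransferase SUV39H1 fell by 0.43 on the log2 scale (adjusted p = 0.0096), the chromatin remodeller CHD3 by 0.38 (adjusted p = 0.0050) and the SETDB1 partner ATF7IP by 0.30 (adjusted p = 0.0072). RESF1, a SETDB1-interacting factor in retroelement silencing, rose by 0.53 (adjusted p = 0.0033), ATRX, a remodeller found at zinc finger gene ends, by 0.27 (adjusted p = 0.011) and the deacetylase HDAC1 by 0.28 (adjusted p = 0.011). With the replicate block, the calls of SUV39H1 (adjusted p = 0.051) and ATRX (adjusted p = 0.055) ended. These differences were small beside those of ZNF506 or ZNF738, the members with the largest falls. Some members called lower, such as ZNF14 (−0.42) and ZNF724 (−0.28), changed less than ZNF274. Whether the differences in this list bear on the 19p12 genes was not tested.

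**Figure D5:**
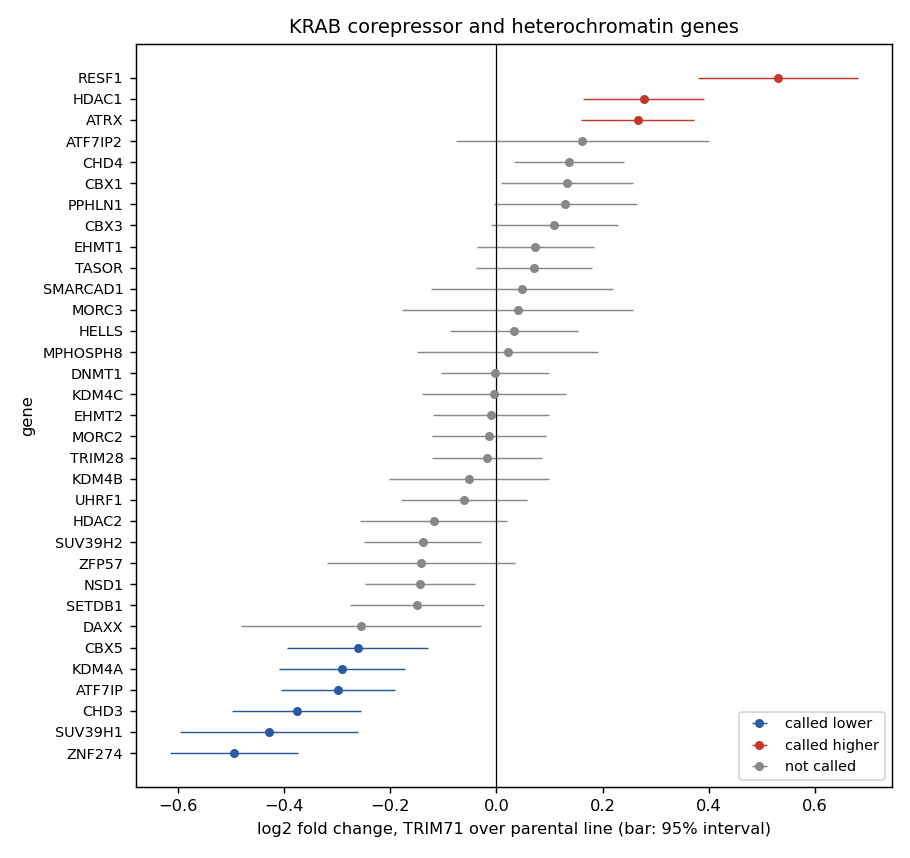
Log2 fold change of the TRIM71 line over the parental line (horizontal axis, bars: 95% interval of the limma fit) for the 33 measured corepressor and heterochromatin genes (vertical axis, by size of change). ZNF274 (−0.49) and RESF1 (0.53) mark the ends, and TRIM28 (−0.02) lies at the centre.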

How the data were processed

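Total RNA of 6 samples was measured on Affymetrix arrays. The authors deposited log2 expression values, 1 column per array, made with RMA and affy per the submitters' processing notes. Versions, array annotation and build are not given in the sources used here. RMA gives the probe intensities of all arrays a common distribution before they are summarized into probesets, so a change in total mRNA per cell cannot be seen. Of 32321 probesets, 19158 had 1 symbol, 1388 several and 11775 none in the platform annotation, and 19125 of the first matched RefSeq (GRCh38.p14) with a place in the genome. That table gave positions and order. A gene was represented by its brightest probeset.

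A model with group as its term was fitted to all probesets by lmFit and eBayes with no filter (limma 3.58.1, R 4.3.3), with Benjamini-Hochberg adjustment over all of them and a threshold of 0.05. Adjusted p-values are from this genome-wide fit unless an array left out or a block is named beside them. It was tested on simulated data. Precision is limited by having 3 arrays in each group. Nothing in the labels says that replicates were separate cultures, so the p-values rest on a spread that may be technical. Members and lists were chosen with earlier results of these data known. Genes given with every array's value were the 12 members with the largest change, any member called higher, and the ZNF genes at the ends of the interval. Of the tested lists, up to 4 called genes per direction with the smallest adjusted p were named, with TRIM28, SETDB1 and the outermost neighbours, while CCNYL6, GOLGA2P9, RPSA2 and further members were named after their values were seen. Where RefSeq gave several promoters (ZNF682), the first was used. Promoter identity came from global alignment (Biopython 1.88). Protein features were planned but not analysed here. The check for pairing by replicate number gave correlations of 0.07, −0.19 and 0.11, so the numbers were not taken as pairs. Alternatives are in the closing section.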

Additional observations from a re-analysis of the deposited data

How the results depend on the processing

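For the 19p12 zinc finger genes, the median change (−0.74) was −0.87 over 25 genes with a filter at a mean of 5, −0.39 over 17 genes with a filter at the median of all probesets, and −0.62 over all 38 member probesets, a setting chosen after seeing the data. With the filter at the median, 10 genes were called lower and 8 were lower by 1.5-fold. Both filters used the mean over both lines, so some members passed only through their parental values. ZNF253 did so at 5 (4.84 in the TRIM71 line, 6.35 in the parental line). ZNF506 did so at the median of 6.94 (6.55 and 8.42). The filtered values thus depend in part on the change itself. The other alternatives gave 14 (at an adjusted p under 0.01) to 23 called lower (over all member probesets), and 17 to 18 with 1 array left out. The 1 gene called higher became 0 with centred arrays, with the replicate block, and at an adjusted p under 0.01, and 0 to 1 with 1 array left out. Of other genes of the interval, 1 fell with the replicate block and 1 at 0.01, and 1 to 3 with 1 array left out. With the replicate block, 2 of the ZNF genes on 19p outside the interval were called lower (2 to 5 with 1 array left out). Their median was 0.0035 with the filter at the median, and −0.031 to 0.0018 with 1 array left out. For ZNF genes of other chromosomes the median was 0.026 with that filter and −0.0044 to 0.0088 with 1 array left out, and 25 to 30 were called lower. Of the corepressor list, 1 rose at 0.01. Over all genes, 1371 fell and 1019 rose with the replicate block, 1106 and 792 at 0.01, and 1336 to 1709 and 979 to 1485 with 1 array left out. The replicate block also ended the calls of SLC25A42, MAU2, LPAR2, SUV39H1 and ATRX. For SETDB1 and ATP13A1, neither called in the main fit, 14 of 15 alternatives gave the same result and 1 gave a stronger one. Directions turned for ZNF333 without parental replicate 2 (0.0036, range −0.10 to 0.0036), for ZNF536 without TRIM71 replicate 3 (0.073) or parental replicate 3 (0.01; range −0.053 to 0.073), and for LOC100420587 without TRIM71 replicate 1 (−0.01) or parental replicate 1 (−0.024; range −0.024 to 0.071). For the 15 members given with every array's value by the naming rule, all 218 values under the alternatives moved by less than 1 SD between replicates; the changes of other members were not recomputed one by one. Causes were not tested. Dim probesets limit what can be seen, as for the 5 members under 4.5. Some members called lower were also dim in the TRIM71 line, such as ZNF726 (mean 3.49), ZNF682 (4.39) and ZNF730 (4.39). The size of their changes is less certain.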
